A study of Mus musculus with 27 samples.

Results

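The 9 genes described here make, store, carry and break down vitamin A and its derivatives, the retinoids: Lrat, Rbp4, Stra6l, Bco1, Rdh16, Dhrs3, Aldh1a1, Aldh1a7 and Cyp26a1. The genes were taken as a list of names, with no threshold on their levels, and their Ensembl identifiers were matched to GRCm38 symbols. All 9 of the 9 were found among the 41388 genes of the count tables, and all 9 are among the 15121 genes with enough reads for testing.

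Ovariectomized female mice of the C57BL/6 strain, 120 days old per the labels, gave the livers from which RNA was sequenced. Each mouse was gavaged every 4 days for 92 days with sesame oil vehicle or with TCDD (2,3,7,8-tetrachlorodibenzo-p-dioxin, a persistent dioxin that activates the aryl hydrocarbon receptor, AhR) at 1 of 8 doses. These were 0.01, 0.03 and 0.1 µg/kg, then 0.3, 1 and 3 µg/kg, then 10 and 30 µg/kg. One label also calls the dosing daily. There were 3 livers in each of the 9 groups, 27 in all; vehicle mice were ovariectomized too. The study asked how hepatic gene expression changes with TCDD dose alongside liver fibrosis, per its title.

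The liver holds most of the body's vitamin A, largely as retinyl esters in the lipid droplets of stellate cells. Hepatocytes take up dietary retinoid, bind retinol to retinol binding protein and release it to the blood, and stellate cells esterify the remainder for storage. Retinol is oxidised to retinal and then to retinoic acid, which acts through nuclear receptors and is cleared by cytochromes of the CYP26 family. Loss of stored hepatic retinoid is a long-known effect of dioxins in rodents.

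Libraries held 11050391 to 30873586 gene counts, except for the 0.3 µg/kg liver of replicate 2 with 434011. That shallow library was kept. Cyp1a1, the classical AhR target, rose from 3.12 ± 0.605 CPM (gene counts scaled to 1000000 per library; mean ± SD, n = 3) in vehicle to 147 ± 28.9 at 0.03 µg/kg and 7201 ± 652 at 30 µg/kg, in the order of the dose labels. The 11 hepatocyte markers that were matched summed to between 64660 and 237085 CPM in each liver. The names of the deposited count tables show that vehicle, the 3 lowest doses and 30 µg/kg share one set of sequencing indices, and the 4 doses from 0.3 to 10 µg/kg another. For these latter 4 doses the index set and the dose cannot be told apart in a comparison with vehicle, whereas 30 µg/kg against vehicle lies within one set. The 1 µg/kg livers of replicates 1 and 3 held neutrophil transcripts: 8 neutrophil markers summed to 1110 and 186 CPM there, against 5.25 in replicate 2 and 1.20 to 2.76 in vehicle. The same sum was 13.2 to 47.4 CPM at 10 µg/kg and 51.9 to 122 at 30 µg/kg. The sum of 10 macrophage and Kupffer cell markers was 1143, 304 and 687 CPM at 1 µg/kg, against 213 to 301 in vehicle and 369 to 489 at 30 µg/kg.

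Of the 9 genes, 4 differed from vehicle at 1 dose or more at an adjusted p below 0.05 (edgeR's quasi-likelihood test, Benjamini-Hochberg adjustment over all 15121 genes). Stra6l and Dhrs3 fell over several doses, Aldh1a1 was lower at 10 µg/kg alone, and Lrat was higher at 1 µg/kg alone. The other 5 genes passed in none of the comparisons. In 72 comparisons of a gene and a dose with vehicle there were 11 calls, of which 1 was an increase. No member was called at 0.01, 0.03 or 0.1 µg/kg, where 0%, 0.0397% and 0.192% of all genes tested were. At 0.3 µg/kg 1 of 9 was called against 1.18% of all genes, at 1 µg/kg 3 against 19.4%, and at 3 µg/kg 2 against 10.1%. At 10 µg/kg 3 of 9 were called against 22.5% and at 30 µg/kg 2 of 9 against 37.4%. The median log2 fold change of the 9 genes at 30 µg/kg was -0.18, and that of all genes tested was -0.01. The members' share called was above that of all genes tested at each dose from 0.3 to 10 µg/kg and below it at 30 µg/kg. With 9 genes, each of these shares rests on 1 to 3 calls and is not read as a trait of the members.

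**Figure D1:**
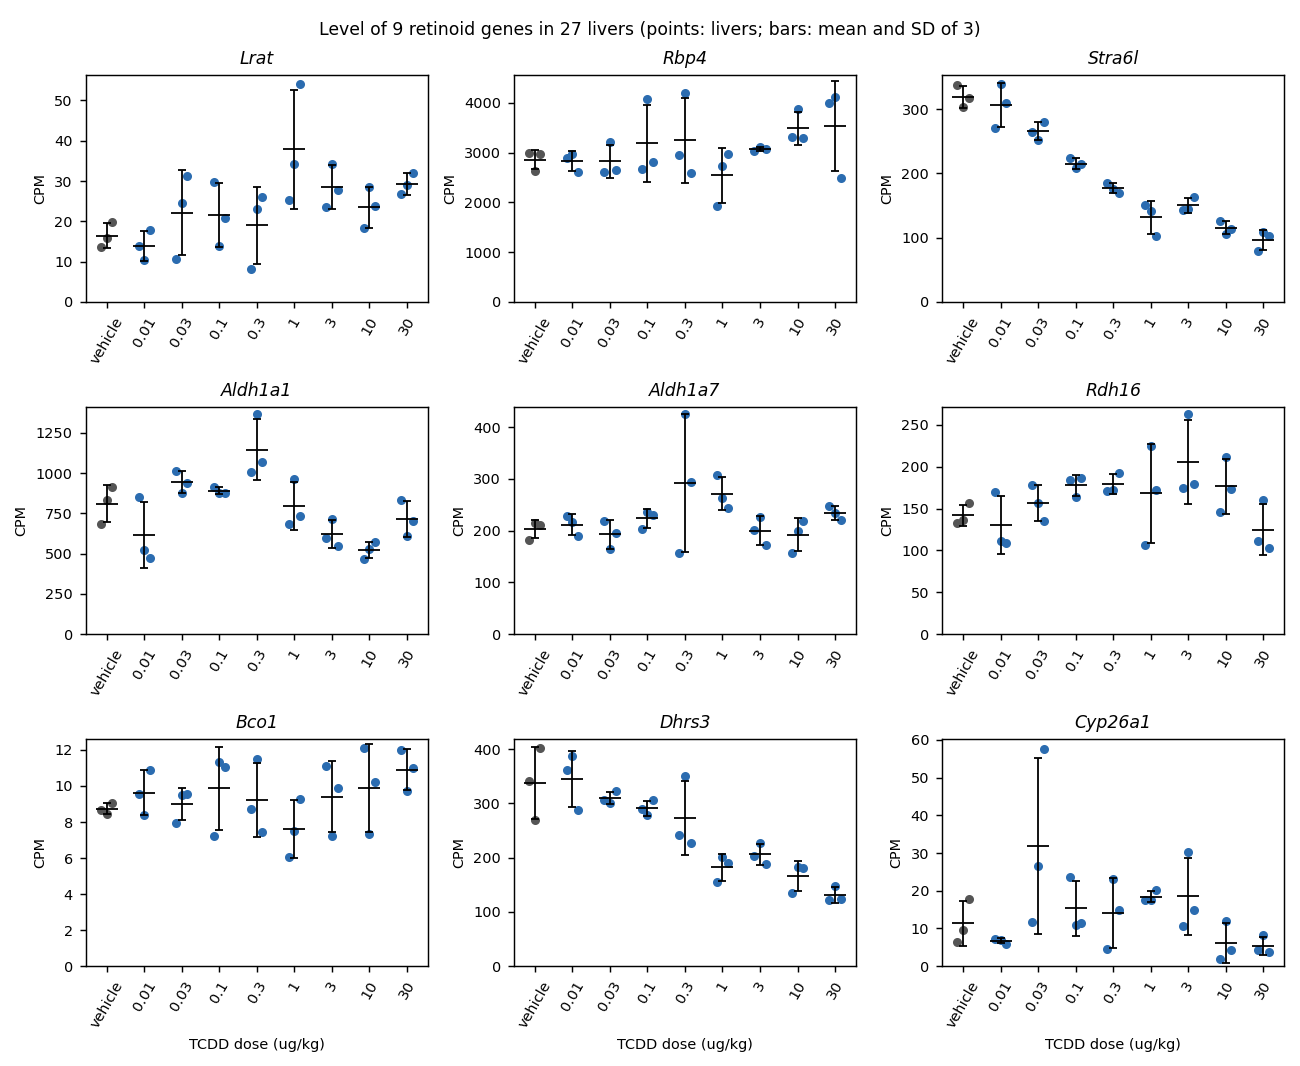
Level of each of the 9 genes, in CPM (linear axes from 0), by TCDD dose in µg/kg. Points are the 3 livers of a group, and bars are the mean and SD; Stra6l and Dhrs3 step down with dose, from 319 and 338 CPM in vehicle to 96.8 and 131 CPM at 30 µg/kg, while the other panels show no such descent.

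Per kilobase of exon, Rbp4 was the most abundant member in vehicle livers, at 2129 ± 148 CPM per kb (SD, n = 3). The length used is that of all annotated exons of a gene merged, whichever transcripts the liver makes. Stra6l, at 319 CPM, was thus divided by 9567 bases and Aldh1a7, at 202 CPM, by 2066. The order of the members per kb rests in part on these lengths. Aldh1a1 followed at 164 ± 23.7, then Dhrs3 at 115 ± 22.9 and Aldh1a7 at 97.9 ± 8.40 CPM per kb. Stra6l stood at 33.4 ± 1.81 and Rdh16 at 22.8 ± 2.05 CPM per kb. Cyp26a1, Bco1 and Lrat were the lowest, at 5.71 ± 3.00, 3.44 ± 0.119 and 3.06 ± 0.581 CPM per kb. The level of Dhrs3 at 30 µg/kg was 44.8 ± 5.13 CPM per kb, below that of Aldh1a7 at 113 ± 6.37. Bulk RNA cannot tell fewer cells of a type from less RNA in each cell, and this holds for every level given.

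Storage begins with Lrat (chr3:82892579-82903973, minus strand, GRCm38), which encodes lecithin retinol acyltransferase, the enzyme that esterifies retinol in stellate cells. Its level in the vehicle livers was 13.6, 15.7 and 19.7 CPM. At 1 µg/kg it was 25.2, 34.2 and 54.1 CPM, at 3 µg/kg 23.5, 34.3 and 27.8, at 10 µg/kg 18.2, 28.4 and 23.9, and at 30 µg/kg 26.7, 29.0 and 32.1. All livers at 1, 3 and 30 µg/kg lay above all vehicle livers, and the 10 µg/kg group overlapped vehicle through 1 liver. The low doses were spread widely, with 10.5, 24.5 and 31.3 CPM at 0.03 µg/kg and 8.13, 23 and 26 at 0.3 µg/kg, the middle value of the latter resting on 8 reads of the shallow library. In the edgeR fit, Lrat was 2.31-fold higher at 1 µg/kg (log2 fold change 1.21, SE 0.39, adjusted p = 0.031). The difference at 30 µg/kg was 1.79-fold with a 95% interval of 1.02 to 3.12 and an adjusted p of 0.0922. Across the ranks of the doses Lrat rose by 0.12 on the log2 scale per rank (SE 0.04, edgeR adjusted p = 0.0117). Its slope was 0.12 within the index set of vehicle and 30 µg/kg (edgeR adjusted p = 0.0154) and 0.02 within the other set, where it did not pass (edgeR adjusted p = 0.974).

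The call of Lrat at 1 µg/kg was lost without any one of the 3 vehicle livers or without replicate 3 of that dose, with log2 values of 0.86 to 1.37 and edgeR adjusted p of 0.0523 to 0.166, and with no filter on low counts (1.22, edgeR adjusted p = 0.0689). In replicate 2 alone, the 1 µg/kg liver with the lowest neutrophil sum, the log2 value was 1.06, beside 1.21 for all 3 livers. DESeq2 called Lrat at 30 µg/kg (adjusted p = 0.0307), as did edgeR when the 6 livers of the 2 groups were fitted alone (adjusted p = 0.00345). Lrat is itself used to mark stellate cells, so 12 other markers of quiescent stellate cells were set beside it. Their sum was 340 to 559 CPM in vehicle and 370 to 465 CPM at 30 µg/kg, which overlap. Of the 12, 1 rose and 5 fell at 30 µg/kg, against 37.4% of all genes called in either direction. Reln, a secreted glycoprotein of stellate cells, went from 64.3 ± 12.1 to 235 ± 79.9 CPM. Ecm1, an extracellular matrix protein, went from 228 ± 90.2 to 80.8 ± 26.7 CPM. These 2 hold most of the sum and moved in opposite directions, so its overlap does not show that the 12 kept their level. Of 10 markers of activated stellate cells and myofibroblasts, 8 rose at 30 µg/kg and none fell, against the same share of all genes. The sum of these 10 was 71.4 to 105 CPM in vehicle and 231 to 545 CPM at 30 µg/kg. The part of cell number in the level of Lrat was not tested.

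Sequences before the start sites are shown for Cyp26a1, Bco1 and Lrat, whose RefSeq promoter windows hold a searched motif; Rbp4, the other member with one, is not printed. RefSeq windows of 300 bases (250 before to 50 after the start, GRCm38.p6) were matched for 9 of the 9 genes, 14 windows in all. On both strands they were searched for GCGTG, the core of the AhR element, and for direct repeats of a nuclear receptor half-site with 1, 2 or 5 bases between the copies (DR1, DR2, DR5). A half-site was AGGTCA or a variant, that is AGTTCA as found in Cyp26a1, GGTTCA as found in Rarb, or GGGTCA in any pairing. GCGTG was found in 2 of the 14 windows, in Lrat and the second of Rbp4, while 32.4% of all 32851 windows hold it. No window of Stra6l, Dhrs3, Aldh1a1, Aldh1a7, Rdh16, Bco1 or Cyp26a1 holds these letters. A DR5, the spacing typical of retinoic acid response elements, was found in the Cyp26a1 window, as in 0.0974% of all windows. Rarb, a retinoic acid receptor gene outside the 9, has one too and is printed for comparison. The allowed variants include the letters of both repeats, so these 2 matches followed from that choice. The share of all windows therefore does not measure how unusual they are. The Bco1 window holds a DR1, as 0.222% of windows do, and no member's window holds a DR2. The stretches below are 120 bases each, read 5′ to 3′ on the strand of the gene, with the matched letters in capitals.
Cyp26a1 (chr19:37697676-37697795, plus strand): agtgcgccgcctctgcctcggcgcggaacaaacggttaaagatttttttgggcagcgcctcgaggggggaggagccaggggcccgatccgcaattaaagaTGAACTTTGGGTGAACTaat
Rarb (chr14:16575489-16575608, minus strand): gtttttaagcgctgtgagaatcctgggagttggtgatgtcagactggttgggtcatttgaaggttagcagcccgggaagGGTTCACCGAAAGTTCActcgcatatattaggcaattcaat
Bco1 (chr8:117095733-117095852, plus strand): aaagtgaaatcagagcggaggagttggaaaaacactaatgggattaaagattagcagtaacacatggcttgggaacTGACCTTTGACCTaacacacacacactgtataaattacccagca
Lrat (chr3:82904075-82904194, minus strand): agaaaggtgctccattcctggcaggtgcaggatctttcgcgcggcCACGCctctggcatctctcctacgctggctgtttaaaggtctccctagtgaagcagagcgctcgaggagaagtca
In Cyp26a1 and Bco1 the repeat lies on the strand opposite to the gene, and in Lrat the capitals are CACGC, the other strand of GCGTG. The repeats begin 32 bases before the start site in Cyp26a1, 53 before it in Rarb and 56 before it in Bco1. A match is a description of the letters and not a site bound by any factor.

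Transport was represented by Rbp4 (chr19:38116629-38125281, minus strand), the plasma carrier that hepatocytes load with retinol and secrete. Vehicle livers held 2983, 2630 and 2964 CPM of Rbp4, and the 30 µg/kg livers 3994, 4115 and 2482 CPM. Replicate 3 of the highest dose was below every vehicle liver and the other 2 were above, so the groups overlapped. Over all 27 livers the level spanned 1924 to 4198 CPM, a 2.18-fold range whose upper end is the shallow library at 0.3 µg/kg, with 1461 reads of Rbp4; the next highest liver is the 30 µg/kg one at 4115 CPM. No dose passed the test against vehicle. At 30 µg/kg the log2 fold change was 0.30, with a 95% interval of -0.14 to 0.75 (edgeR adjusted p = 0.277). The slope over dose ranks was 0.03 per rank with an edgeR adjusted p of 0.154, and it passed with RLE scaling (adjusted p = 0.0471), with DESeq2 (adjusted p = 0.0251) and without replicate 3 at 30 µg/kg (edgeR adjusted p = 0.0495).

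Stra6l (chr4:45848664-45887008, plus strand) encodes a membrane receptor for the retinol-loaded Rbp4 protein that is known from liver and intestine. Its level was 338, 303 and 317 CPM in vehicle and 271, 339 and 310 at 0.01 µg/kg, 2 groups that overlap. It was 264, 252 and 281 CPM at 0.03 µg/kg and 224, 208 and 214 at 0.1 µg/kg. From 0.03 µg/kg upward, every liver lay below every vehicle liver. At 0.3 µg/kg the 3 livers held 185, 175 (61 reads of the shallow library) and 170 CPM, at 1 µg/kg 151, 142 and 103, and at 3 µg/kg 143, 145 and 163. The 2 highest doses gave 126, 106 and 114 CPM at 10 µg/kg and 79.2, 108 and 103 at 30 µg/kg. The group means thus followed the dose order with 1 exception, since 3 µg/kg stood above 1 µg/kg, and of the 8 gaps between means next to each other in level, 5 were wider than the larger of the 2 SDs.

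Stra6l was the member that was called at the lowest dose. It was 1.80-fold lower at 0.3 µg/kg (log2 fold change -0.85, SE 0.15, edgeR adjusted p = 0.00234) and 2.42-fold lower at 1 µg/kg. At 30 µg/kg it was 3.3-fold lower, with a log2 fold change of -1.72, an SE of 0.15 and an edgeR adjusted p of 2.52e-09. At 0.1 µg/kg the 1.48-fold lower level did not pass (edgeR adjusted p = 0.162), though it did with DESeq2 (adjusted p = 0.0177) and when only these 6 livers were fitted (adjusted p = 0.044). Such a fit of 6 livers lost the call at 0.3 µg/kg (adjusted p = 0.0771). The slope was -0.22 per dose rank over all livers (edgeR adjusted p = 4.08e-13). Within the index set that holds vehicle and 30 µg/kg the slope was -0.22 (edgeR adjusted p = 2.75e-08), and within the other set it was -0.15 and did not pass (edgeR adjusted p = 0.171).

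Bco1 (chr8:117095854-117133720, plus strand) encodes the oxygenase that cleaves beta-carotene into retinal. It was among the least abundant members, at 8.69, 8.47 and 9.07 CPM in vehicle and 12, 9.72 and 11 at 30 µg/kg. Although all 3 livers at 30 µg/kg lay above the vehicle livers, the 1.25-fold difference did not pass the test (95% interval 0.93 to 1.67, edgeR adjusted p = 0.224). Bco1 passed at no other dose, and its level over all 27 livers spanned 6.07 to 12.1 CPM.

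Retinol and retinal are interconverted by short-chain dehydrogenases, of which Rdh16 oxidises retinol and Dhrs3 reduces retinal back to retinol. Rdh16 (chr10:127801152-127846565, plus strand) shares 6.1% of its exonic bases with a pseudogene on the same strand. It stood at 133, 136 and 157 CPM in vehicle, at 175, 263 and 180 CPM at 3 µg/kg and at 112, 160 and 103 CPM at 30 µg/kg. The 3 µg/kg livers all exceeded the vehicle livers, and the 30 µg/kg livers overlapped them. Neither difference passed: the log2 fold change was 0.54 (95% interval 0.06 to 1.02) at 3 µg/kg with an edgeR adjusted p of 0.15, and -0.18 (-0.66 to 0.30) at 30 µg/kg with an edgeR adjusted p of 0.56.

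Dhrs3 (chr4:144892827-144928209, plus strand) fell in a pattern close to that of Stra6l but from a higher dose. Vehicle livers held 341, 269 and 403 CPM, the 0.03 µg/kg livers 306, 301 and 323, and the 0.1 µg/kg livers 289, 278 and 306. At 0.3 µg/kg the values were 241, 351 and 228 CPM, the highest of them in the shallow library. At 1 µg/kg they were 155, 201 and 191 CPM, at 3 µg/kg 202, 227 and 189, at 10 µg/kg 135, 183 and 181, and at 30 µg/kg 122, 149 and 123. From 1 µg/kg upward no liver reached the lowest vehicle liver. The edgeR log2 fold change was -0.89 (SE 0.18, adjusted p = 0.00104) at 1 µg/kg, -0.71 (SE 0.18, adjusted p = 0.00906) at 3 µg/kg, -1.02 (SE 0.18, adjusted p = 0.000142) at 10 µg/kg and -1.36 (SE 0.18, adjusted p = 1.75e-06) at 30 µg/kg. The last of these is 2.57-fold lower. Without replicate 3 of vehicle or replicate 3 of that dose the call at 3 µg/kg was lost, with log2 values of -0.56 and -0.64 and edgeR adjusted p of 0.1 and 0.0653. In replicate 2 alone, the 1 µg/kg liver with the lowest neutrophil sum, the log2 value was -0.74, beside -0.89 for all 3 livers. The slope was -0.17 per dose rank (edgeR adjusted p = 6.34e-09), -0.18 within the index set of vehicle and 30 µg/kg (adjusted p = 3.97e-06), and -0.17 within the other set, where it did not pass (adjusted p = 0.159).

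At 30 µg/kg hepatocyte markers fell, as Stra6l and Dhrs3 did. Of 11 tested, 9 fell at this dose and none rose, against 37.4% of all genes called in either direction. Their median log2 fold change was -1.07, and Alb, the albumin gene, was lower by a log2 value of -1.15. At 0.3 µg/kg, where Stra6l was called, 0 of the 11 were (median -0.08), against 1.18% of all genes. At 1 µg/kg 2 of the 11 fell (median -0.37), against 19.4% of all genes. At 3 µg/kg 2 fell (median -0.32), against 10.1%, and at 10 µg/kg 4 fell (median -0.59), against 22.5%. For 10 against 0.3 µg/kg 5 were lower (median -0.68), against 13.3%. Markers of several other cell types rose at 30 µg/kg. These were 5 of 6 bile duct markers (median log2 fold change 3.26), 8 of 8 neutrophil markers (5.26) and 4 of 7 T and B cell markers (1.61). Of 10 macrophage markers 3 rose and 1 fell (0.70), near the share of all genes called. Of 8 endothelial markers none rose and 1 fell (-0.03). The summed level of the hepatocyte markers was 128546 to 237085 CPM in vehicle and 64660 to 100412 CPM at 30 µg/kg. Most of this sum is Alb, at 139107 ± 49133 CPM in vehicle and 62495 ± 18220 at 30 µg/kg (SD, n = 3). The part of these cell types in the falls of Stra6l and Dhrs3 was not tested.

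**Figure D2:**
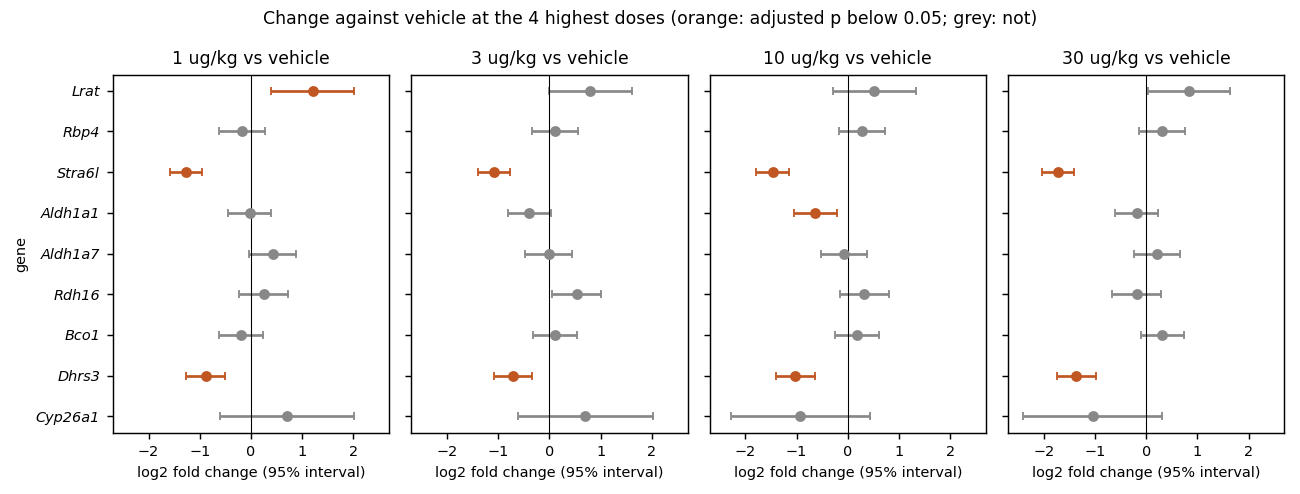
Log2 fold change of each of the 9 genes against vehicle at 1, 3, 10 and 30 µg/kg, with 95% intervals (18 residual degrees of freedom) from the one-way edgeR model. Orange marks an adjusted p below 0.05: Stra6l and Dhrs3 in all 4 panels, at -1.72 and -1.36 in the last, Lrat at 1 µg/kg and Aldh1a1 at 10 µg/kg.

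The step from retinal to retinoic acid in adult liver is taken chiefly by Aldh1a1 (chr19:20492715-20643465, plus strand), a cytosolic retinal dehydrogenase. Beside it lies Aldh1a7 (chr19:20692953-20727562, minus strand), a rodent copy of the same gene. The coding sequences of both have 1503 bases and are 91.6% identical, with no gap in their alignment, and 23.9% of the runs of 25 bases in Aldh1a7 also occur in Aldh1a1. The counting kept alignments that are not unique apart from the gene counts. Reads that align equally well to both copies were therefore left out, and the level of each copy is uncertain to that extent. The first 90 coding bases show how close they are, with the 5 differing bases in capitals.
Aldh1a1: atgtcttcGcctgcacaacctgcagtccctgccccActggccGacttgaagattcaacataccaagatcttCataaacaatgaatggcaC
Aldh1a7: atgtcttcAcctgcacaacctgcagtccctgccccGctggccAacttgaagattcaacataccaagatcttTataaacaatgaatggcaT
Vehicle livers held 684, 831 and 916 CPM of Aldh1a1. At 0.3 µg/kg it was 1007, 1365 and 1066 CPM, all above vehicle and the highest of them from 475 reads of the shallow library, and at 10 µg/kg 467, 530 and 570 CPM, all below. The 30 µg/kg livers overlapped the vehicle livers, at 834, 607 and 705 CPM. The 10 µg/kg group was 1.55-fold lower than vehicle (log2 fold change -0.63, SE 0.20, edgeR adjusted p = 0.0235). That call was lost with RLE scaling (-0.54, edgeR adjusted p = 0.0507), with upper-quartile scaling (-0.54, edgeR adjusted p = 0.0624), with the counts of both copies summed (-0.50, edgeR adjusted p = 0.0573) and without any one of the 10 µg/kg livers or replicate 2 or 3 of vehicle. At 30 µg/kg the log2 value was -0.18, with a 95% interval of -0.60 to 0.24 (edgeR adjusted p = 0.506).

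Aldh1a7 stood at 182, 214 and 210 CPM in vehicle and 247, 234 and 221 CPM at 30 µg/kg, a 1.16-fold difference that did not pass (95% interval 0.84 to 1.58, edgeR adjusted p = 0.475). Its widest spread was at 0.3 µg/kg, with 157, 425 and 294 CPM, the highest being the shallow library's 148 reads. Without replicate 1 of that dose, the lowest of the 3, Aldh1a7 was called higher than vehicle (log2 0.81, edgeR adjusted p = 0.0215). At 1 µg/kg it was 307, 263 and 244 CPM, all above vehicle, and did not pass (edgeR adjusted p = 0.181).

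The ratio of Aldh1a1 to Aldh1a7 within a liver does not depend on how libraries are scaled. It was 3.75, 3.89 and 4.35 in vehicle, 2.97, 2.66 and 2.60 at 10 µg/kg and 3.38, 2.60 and 3.19 at 30 µg/kg. All 6 livers of the 2 highest doses lay below all vehicle livers. A two-sided exact permutation test gave p = 0.1 for each of these doses against vehicle, the smallest that 3 against 3 livers allow. The livers at 1 µg/kg, with 2.24, 3.67 and 3.01, and at 3 µg/kg, with 2.96, 3.16 and 3.18, lay below all vehicle livers too, as did those at 0.01 µg/kg, with 3.72, 2.43 and 2.47. At 0.03 µg/kg the ratio was above vehicle in all 3 livers, at 4.62, 5.37 and 4.79, and at 0.1 and 0.3 µg/kg the livers overlapped vehicle. The ratio was thus lower in all 12 livers from 1 µg/kg upward, without a steady order among the doses below.

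**Figure D3:**
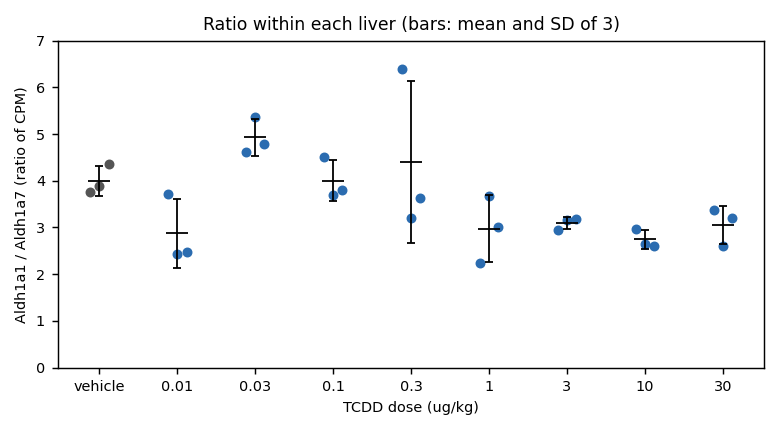
Ratio of Aldh1a1 to Aldh1a7 CPM within each liver (linear axis from 0) by TCDD dose in µg/kg. Points are livers and bars the mean and SD of 3; the ratio is 4.00 ± 0.315 in vehicle and 2.74 ± 0.201 at 10 µg/kg, and its widest spread is at 0.3 µg/kg, from 3.21, the shallow library, to 6.40.

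Breakdown of retinoic acid was represented by Cyp26a1 (chr19:37697798-37701536, plus strand), a retinoic acid hydroxylase whose transcription is induced by retinoic acid itself. Of the 9 genes it varied most from liver to liver, from 1.84 to 57.5 CPM over the 27. Vehicle livers held 6.38, 9.67 and 17.9 CPM, and the 0.03 µg/kg livers 11.8, 26.6 and 57.5. At 1 µg/kg the values were 17.6, 17.5 and 20.1 CPM and at 3 µg/kg 10.7, 30.2 and 14.8. They were low at the 2 highest doses, with 1.84, 12 and 4.35 CPM at 10 µg/kg and 4.37, 8.18 and 3.83 at 30 µg/kg. Both of these groups overlapped vehicle. No comparison passed: at 30 µg/kg the log2 fold change was -1.04 with a 95% interval of -2.40 to 0.31 (edgeR adjusted p = 0.219), and at 0.03 µg/kg it was 1.5, with 0.18 to 2.82 and an edgeR adjusted p of 1. An interval of this width does not show that the gene kept its level.

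Within the second index set, 10 and 0.3 µg/kg could be compared without a change of set. Here 3 of the 9 genes were called, all lower, against 13.3% of all genes tested. Aldh1a1 was lower at 10 µg/kg by a log2 value of -1.13 (SE 0.20, edgeR adjusted p = 0.00046), Stra6l by -0.62 (SE 0.15, edgeR adjusted p = 0.00734) and Dhrs3 by -0.69 (SE 0.18, edgeR adjusted p = 0.0126). The Dhrs3 call was lost without the shallow library (-0.45, edgeR adjusted p = 0.108) or without replicate 1 at 10 µg/kg (-0.56, edgeR adjusted p = 0.0778). The Stra6l call was lost without replicate 1 at 0.3 µg/kg or replicate 2 at 10 µg/kg, with edgeR adjusted p of 0.0527 and 0.0502. Aldh1a7 gained a call without replicate 1 at 0.3 µg/kg (-0.86, edgeR adjusted p = 0.00443). The slope over dose rank in all 27 livers was called for 3 members, 1 higher (Lrat) and 2 lower (Stra6l and Dhrs3), against 46.6% of all genes. Between neighbouring doses, 63 tests of the 9 genes over 7 steps gave no call, against 1.74% of all genes and steps.

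The members did not move as a group. Stra6l and Dhrs3 had a Pearson r of 0.92 over the 26 deep libraries on the log2 CPM scale, a description of livers that share the dose series. Stra6l and Lrat had an r of -0.59, and Lrat and Cyp26a1 0.46. Over the same libraries, the gene most like Stra6l among the 11755 compared was Gldc, a glycine decarboxylase (r = 0.98), followed by Dapk1 (0.97) and Diaph1 (0.96). Dhrs3 was nearest to Coq8a (0.97), Tymp (0.96) and Pald1 (0.95). Lrat was nearest to Ccbe1 (0.82), Zfp970 (0.77) and Cyp26b1 (0.76). The highest values were lower for Cyp26a1 (Tmem14c, 0.71), Bco1 (Noc2l, 0.69), Aldh1a7 (Skap2, 0.77) and Aldh1a1 (Sult2a7, 0.78), and stood at 0.90 for Rbp4 (Timm13) and 0.88 for Rdh16 (Fahd2a).

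Around the 9 genes, 6 further lists hold 65 other genes of retinoid handling, of which 55 had enough reads for testing. Of the 55, 8 rose and 27 fell at 30 µg/kg, against 37.4% of all genes called in either direction. Their median log2 fold change was -0.64, beside -0.01 for all genes. At 10 µg/kg 3 rose and 14 fell, against 22.5% of all genes called, and at 1 µg/kg 2 rose and 7 fell, against 19.4%, a share of all genes above that of the 55.

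Genes that make or hydrolyse retinyl esters, most of which also act on other lipids, included 8 falls and 2 rises among 12 at 30 µg/kg. Of all genes tested, 37.4% were called at this dose. Ces1d, a carboxylesterase, fell 7.81-fold from 929 ± 195 to 119 ± 51.1 CPM (SD, n = 3), and Ces1g, of the same family, fell 2.54-fold. Pnpla3, a lipase active on retinyl esters in stellate cells, fell 13.7-fold, from 5.11 ± 1.01 to 0.373 ± 0.124 CPM. Lipc, hepatic lipase, fell 2.77-fold. Lpl, lipoprotein lipase, rose 7.50-fold from 17.8 ± 2.51 to 134 ± 31.1 CPM. Pnpla2, a triglyceride lipase, rose 1.34-fold (edgeR adjusted p = 0.0485), and this call was lost without most single livers. Plin2, a lipid droplet coat protein, and Ces1f did not pass, with log2 values of -0.13 (95% interval -0.83 to 0.58) and -0.18 (-0.61 to 0.25).

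Among 17 other retinol and retinal oxidoreductases tested, 1 rose and 9 fell at 30 µg/kg, against 37.4% of all genes called. Adh4, an alcohol dehydrogenase with high activity on retinol, fell 4.55-fold from 114 ± 19.9 to 24.9 ± 9.05 CPM. Rdh11, a retinal reductase, fell 3.88-fold, and Bco2, the other carotene oxygenase, fell 3.89-fold. Rdh9 fell 2.45-fold, but 64.1% of its exonic bases overlap a neighbouring gene on the same strand. Adh1, the most abundant of the list at 2661 ± 396 CPM in vehicle, did not pass, with a log2 value of -0.18 (95% interval -0.64 to 0.28), nor did Adh5, with -0.29 (-0.66 to 0.07).

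**Figure D4:**
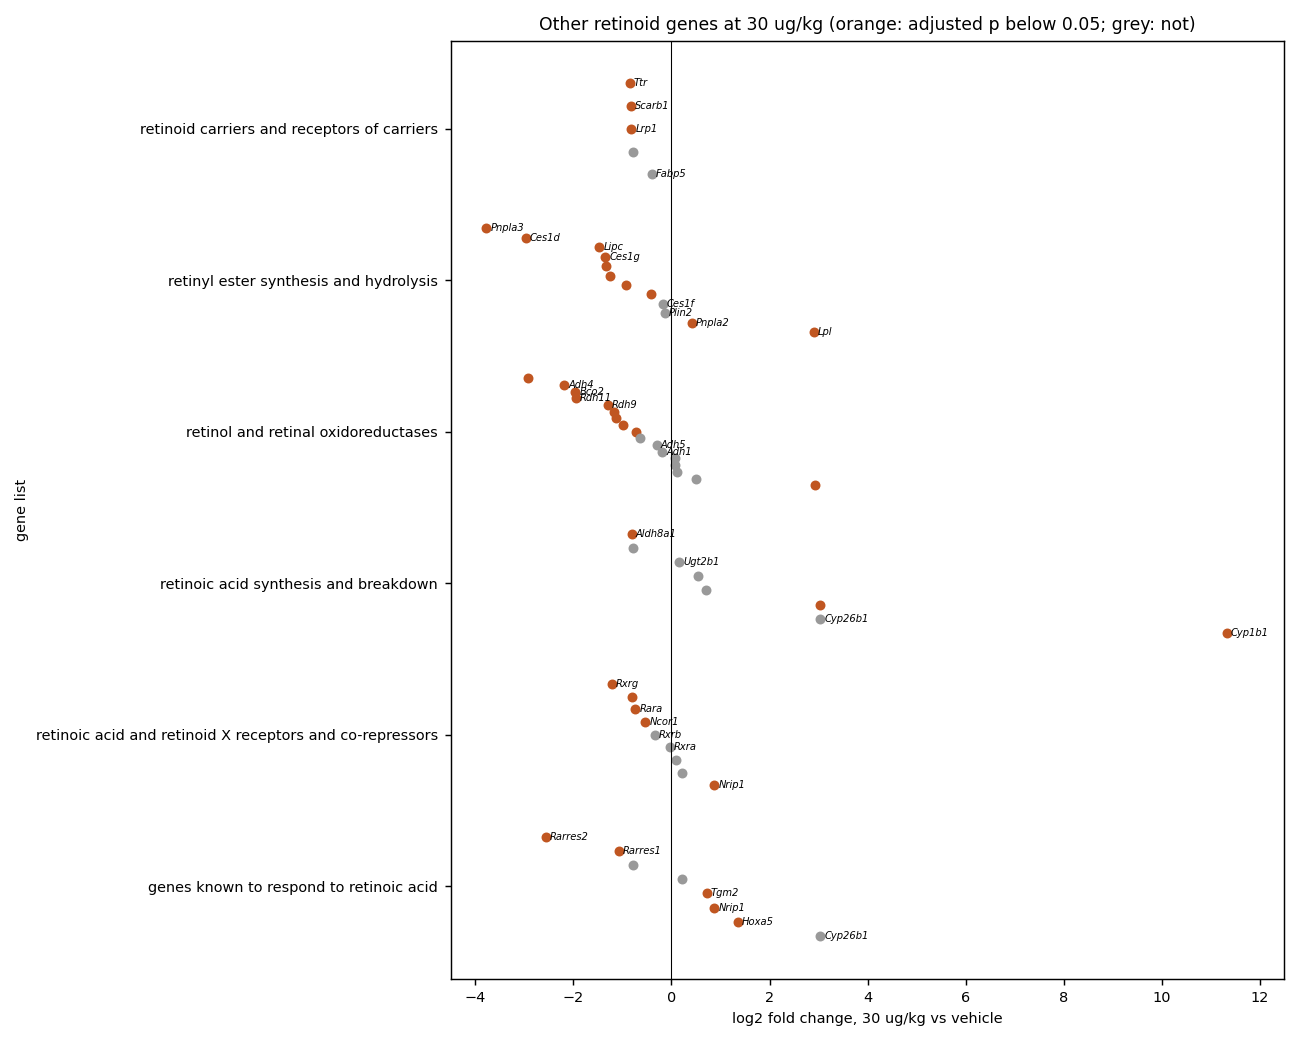
Log2 fold change at 30 µg/kg against vehicle of the 55 other retinoid genes tested, by list (a gene in 2 lists is drawn in both, and some points carry no name). Orange marks an edgeR adjusted p below 0.05; most orange points lie left of 0, among them Ces1d at -2.97 and Adh4 at -2.19, and Cyp1b1 lies farthest right at 11.32.

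Of the 8 tested genes of retinoic acid synthesis and breakdown, 2 rose and 1 fell at 30 µg/kg, about the share of all genes called (37.4%). Cyp1b1, an AhR target that can also oxidise retinol and retinal, rose from 0.762 ± 0.0718 to 1964 ± 636 CPM. Aldh8a1, a retinal dehydrogenase, fell 1.75-fold from 350 ± 18.7 to 200 ± 42.7 CPM. Cyp26b1, the relative of Cyp26a1, stood at 0.634, 1.36 and 4.5 CPM in vehicle and 6.42, 27.2 and 20.1 at 30 µg/kg, where the groups did not overlap. It did not pass in the edgeR fit (log2 3.04, SE 1.24, adjusted p = 0.0624) and did with DESeq2 (adjusted p = 0.0211). Ugt2b1 did not pass, with a log2 value of 0.16 (95% interval -0.33 to 0.65).

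At 30 µg/kg 3 of the 5 carriers and receptors of carriers tested fell, against 37.4% of all genes called in either direction. Ttr, the plasma partner of Rbp4, fell 1.79-fold (edgeR adjusted p = 0.025), a call lost without replicate 1 or 3 at 30 µg/kg or replicate 3 of vehicle, with log2 values of -0.84, -0.52 and -0.56 in place of -0.84. Scarb1, a scavenger receptor that takes up carotenoids, fell 1.77-fold and Lrp1, a receptor for lipoprotein remnants, 1.76-fold. Fabp5, a fatty acid binding protein, did not pass and had a log2 value of -0.41 (95% interval -1.85 to 1.03).

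Among 9 retinoid receptors and co-repressors 1 rose and 4 fell at 30 µg/kg, against 37.4% of all genes called. Rxrg fell 2.32-fold, Rara 1.67-fold and Ncor1 1.45-fold; the Ncor1 call was lost without replicate 1 or 2 at 30 µg/kg. Nrip1 rose 1.83-fold, but without replicate 3 at 30 µg/kg its log2 value was 0.39 in place of 0.88 and did not pass (edgeR adjusted p = 0.351), and 4 other single livers left out ended the call too. Rxra, the most abundant at 486 ± 22.8 CPM in vehicle, had a log2 value of -0.03 (95% interval -0.39 to 0.33), and Rxrb -0.34 (-0.63 to -0.05, edgeR adjusted p = 0.0516).

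Genes that retinoic acid is known to induce gave no common direction at 30 µg/kg, with 3 rises and 2 falls in 8 tested. The share of all genes called at this dose was 37.4%. Tgm2, a transglutaminase, rose 1.65-fold to 234 ± 18.5 CPM, and Hoxa5, a homeobox gene, 2.54-fold to a level of 1.01 ± 0.113 CPM, a call lost without replicate 1 at 30 µg/kg or replicate 1 or 3 of vehicle. Rarres2, which encodes chemerin, fell 5.91-fold from 651 ± 101 to 110 ± 68.7 CPM; 33.6% of its exonic bases overlap a gene on the other strand, and the strand setting of the counting is not given. Rarres1 fell 2.11-fold, a call lost without replicate 2 of vehicle (log2 -0.66 in place of -1.08) or replicate 3 at 30 µg/kg (-0.83). Rarb, whose promoter stretch is printed above beside that of Cyp26a1, stood at 3.34 ± 0.795 CPM in vehicle and 3.85 ± 0.203 at 30 µg/kg and did not pass. The limit of strand holds here too, as 38.4% of the exonic bases of Rarb and 21.8% of those of Tgm2 overlap genes on the other strand.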

How the data were processed

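RNA of 27 livers was extracted with TRIzol and made into libraries with an Illumina TruSeq kit, per the labels. The deposited values are whole read counts for each gene. The submitters' processing notes say that the authors' reads were checked with FastQC 0.11.2, trimmed with cutadapt 1.4.1, aligned to GRCm38 with TopHat 1.4.1 and counted with HTSeq 0.6.1. Neither the strand setting nor the annotation release was given in the sources used here. Reads on no gene (5.62% to 11.9%) were left out.

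The tests used edgeR 4.0.16 in R 4.3.3: filterByExpr (minimum 10 counts, 15121 genes), TMM scaling, and a robust quasi-likelihood fit of all 9 groups, with a separate fit on dose rank, from 0 to 8. The standard error is the log2 fold change over the square root of F; 95% intervals use 18 degrees of freedom. CPM use TMM library sizes. The script was tested on simulated data. Alternatives included DESeq2 1.42.0. The edgeR p-values set a difference between groups against the spread between livers within the groups. Counts of no 2 livers of a group matched within sampling noise.

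The members, lists, tests and naming rule were chosen with earlier results of these data known. Named other genes were, per list, the 4 largest rises and falls at 30 µg/kg with at least 1 CPM, and the 2 most abundant uncalled. A result for 2 of these genes is not reported here.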

Additional observations from a re-analysis of the deposited data

How the results depend on the processing

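Over 1585 alternative values of the 9 genes, 1541 kept their call, 32 lost and 12 gained one, and no called value changed its sign; 66 uncalled ones did. Counts of called members moved by over 1.5 times as follows. DESeq2 and the fit of the 6 libraries alone each gave 1 member at 0.1 µg/kg in place of 0. The fit of the 6 libraries gave 0 in place of 1 at 0.3 µg/kg and 1 in place of 3 for 10 against 0.3 µg/kg. Within the second index set the trend gave 1 member, Aldh1a1, in place of 3. With replicate 2 alone at 1 µg/kg, chosen after seeing the data, 1 member was called in place of 3; that lone liver was assumed to vary like the other groups, so the lost calls do not bear on the size of the change. Leaving out single livers gave 1 to 2 members at 0.3 µg/kg, 1 to 2 at 3 µg/kg and 0 to 1 over the steps between neighbouring doses. Smaller moves were 2 in place of 3 at 1 µg/kg without the filter (Lrat lost), at 10 µg/kg with RLE or upper-quartile scaling (Aldh1a1 lost), and without single livers at 1 µg/kg, at 10 µg/kg and for 10 against 0.3 µg/kg. Lrat gave 3 in place of 2 at 30 µg/kg with DESeq2 and at 3 and 30 µg/kg in the fit of the 6 libraries (at 3 µg/kg edgeR adjusted p = 0.0127), and Rbp4 gave 4 in place of 3 for the trend with RLE scaling, with DESeq2 or without replicate 3 at 30 µg/kg. An adjusted p below 0.01 gave 2 in place of 3 at 1 and 10 µg/kg, for 10 against 0.3 µg/kg and for the trend. A replicate block gave 3 members in place of 2 at 30 µg/kg, adding Lrat (log2 0.86, edgeR adjusted p = 0.0455), and the same count elsewhere. The numbers do not pair the livers: same-numbered livers had a median correlation of deviations of 0.022 over 108 pairs. With RLE scaling the median of all genes at 30 µg/kg went from -0.01 to 0.10 on the log2 scale, and the share of higher calls from 48.1% to 59.3%; Stra6l and Dhrs3 stayed called. Of 510 alternative values of the other retinoid genes named, 474 kept their call. With 434011 counts, the shallow library limits the 0.3 µg/kg group for Lrat, Bco1 and Cyp26a1, which had 4 to 8 reads there.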

Other observations

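The livers with high Lrat at 0.03 and 0.1 µg/kg were also those with high Cyp26a1 and Cyp26b1, a pattern noticed in the values and not tested. At 0.03 µg/kg the liver with the lowest Lrat, 10.5 CPM, held 11.8 CPM of Cyp26a1 and 0.768 of Cyp26b1, and the liver with the highest, 31.3 CPM, held 57.5 and 33. At 0.1 µg/kg the liver with 29.8 CPM of Lrat held 23.8 of Cyp26a1 and 19 of Cyp26b1, against 13.9, 10.9 and 1.46 CPM in the lowest. At 0.3 µg/kg the liver with 8.13 CPM of Lrat held 4.43 and 0.369 CPM. At 30 µg/kg, by contrast, Lrat was 26.7 to 32.1 CPM with Cyp26a1 at 3.83 to 8.18 and Cyp26b1 at 6.42 to 27.2. In vehicle and at 3 and 10 µg/kg, Lrat and Cyp26a1 had the same order over the 3 livers. The vehicle livers with 13.6, 15.7 and 19.7 CPM of Lrat held 6.38, 9.67 and 17.9 CPM of Cyp26a1. Those with 18.2, 23.9 and 28.4 CPM at 10 µg/kg held 1.84, 4.35 and 12 CPM. Other groups differed. At 0.01 µg/kg the liver with the highest Lrat, 17.8 CPM, had the lowest Cyp26a1, 5.97. The same held at 30 µg/kg, with 32.1 and 3.83 CPM. At 1 µg/kg the liver with the highest Lrat, 54.1 CPM, also had the highest Cyp26a1, 20.1. Its Cyp26b1 was 3.92 CPM, against 9.61 in replicate 2. The labels name no difference between the livers of a dose.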
